A study of Mus musculus with 12 samples.

Results

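The 8 genes described here encode enzymes and a transporter of arginine use and markers or regulators of alternative activation in mouse bone marrow macrophages. They are Ass1, Odc1, Slc7a2, Mrc1, Retnla, Chil3, Il4ra and Socs3, taken by symbol from a table of 54532 genes in which each of these symbols stands for 1 gene. The set was chosen by an antibody difference in the counts of these same libraries together with the roles of the genes. The antibody comparisons of the members are therefore given as a description, with no p-value, and tests of the members are given for the coating comparisons and for the interaction of antibody and coating.

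The macrophages came from the marrow of wild-type C57BL/6J mice aged 2 to 3 months. The labels name the tibia as its source, and the methods of the study name the femur and the tibia. They were grown with CSF-1, at 12 ng/ml and then at 120 ng/ml, in medium with 15% fetal calf serum. After passage onto plain dishes or dishes pre-coated with fibronectin (10 µg/ml, a unit the labels write as µm/ml), confluent cells received control IgG or a neutralizing antibody to integrin α5 (ITGA5), each at 10 µg/ml for 24 h. Each antibody was thus tested on both kinds of dish, in 4 groups of 3 RNA-seq libraries. All groups thus shared the same strain, growth factor and serum, and the labels name no added IL-4 or endotoxin. The study describes the replicates of these macrophages as independent biological experiments, and the labels do not say whether they came from separate mice, so p-values measure the spread between these libraries.

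Macrophages can turn arginine into ornithine, from which ornithine decarboxylase makes putrescine, the first polyamine. In mouse macrophages the mannose receptor Mrc1 and the secreted proteins Retnla and Chil3 are classical readouts of alternative activation, in which IL-4 or IL-13 binds a receptor containing the IL-4Rα chain and activates STAT6. SOCS3 restrains another pathway, that of some cytokines whose receptors activate STAT3.

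Reads counted on genes ranged from 12954342 to 22075432 per library. The replicates of anti-ITGA5 without fibronectin stood apart in their spread, with a chi-square per gene between pairs of 10.4 to 23, against 2.65 to 7.45 elsewhere. Of 8 macrophage markers, all were expressed in every library, with summed levels of 8977 to 9822 FPKM in IgG and 6129 to 7517 FPKM upon ITGA5 neutralization without fibronectin, and of 9558 to 9759 and 7336 to 7506 FPKM with fibronectin. Lyz2 made up most of these sums, at 4559 to 7988 FPKM over all libraries, and Cd68 came next at 929 to 1180 FPKM. Of these 8 markers, 4 were lower and 1 was higher upon ITGA5 neutralization on each coating. FPKM are read pairs (fragments) per kilobase of gene, scaled to an adjusted size of the library. Of 7 neutrophil markers, Ly6g had no read and S100a8 was at 1.32 to 3.42 FPKM. Their summed level was 2.41 to 4.23 against 2.65 to 3.70 FPKM without fibronectin and 3.02 to 4.52 against 1.86 to 3.00 FPKM with it (IgG first), where 1 of 2 tested was lower upon ITGA5 neutralization. The eosinophil, basophil and mast cell markers Epx, Fcer1a and Ms4a2 had no read, and their list summed to at most 0.356 FPKM. Lists of fibroblast, dendritic cell, and T and B cell markers stayed under 1 FPKM for each gene. Proliferation markers moved with the antibody: 8 of 10 were higher on each coating, with summed levels of 420 to 493 against 641 to 705 FPKM without fibronectin and of 429 to 512 against 616 to 757 FPKM with fibronectin. The part of these shifts in the results that follow was not tested, and in these bulk libraries fewer cells of a type and less RNA per cell cannot be told apart. Itga5 itself, whose protein the antibody binds, was at 46.1 ± 2.57 and 51.0 ± 1.94 FPKM without fibronectin and at 46.9 ± 1.88 and 49.4 ± 2.49 FPKM with fibronectin (SD, n = 3, IgG first).

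Upon ITGA5 neutralization, Odc1, which makes the first polyamine from ornithine, was 1.33-fold higher without fibronectin and 1.42-fold higher with it. Il4ra was at 0.785 and 0.810 of its level in IgG, and Socs3, a low transcript, at 0.662 and 0.603. The mannose receptor gene Mrc1, the most abundant member, was little changed without fibronectin and 1.22-fold higher with it. Retnla and Chil3 were close to the limit of detection in all 4 groups. Of 6 members with enough counts to be tested without fibronectin, 1 was lower (Il4ra) and 1 was higher (Odc1) past the threshold (adjusted p-value of at most 0.05), where 20.8% of all genes tested passed. With fibronectin, 2 were lower (Il4ra and Socs3) and 2 were higher (Odc1 and Mrc1) of 7, where 27.6% of all genes tested passed. As these contrasts served to choose the set, nothing is read from these counts. The FPKM of IgG and anti-ITGA5 libraries did not overlap for 4 of the 6 members tested without fibronectin (38.2% of genes tested) and for 4 of 7 with fibronectin (42.4%).

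Odc1 (chromosome 12, GRCm38, 17544794 to 17551505) encodes ornithine decarboxylase, the rate-limiting enzyme of polyamine synthesis. Its libraries lay at 39.9, 44.4 and 42.3 FPKM in IgG and at 56.7, 54.1 and 57.1 FPKM upon ITGA5 neutralization without fibronectin, and at 40.9, 44.9 and 42.1 against 59.6, 65.4 and 56.5 FPKM with fibronectin. Every anti-ITGA5 library was above every IgG library, also across coatings. The log2 fold change was 0.41 (SE 0.0540) without and 0.50 (SE 0.0561) with fibronectin.

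**Figure D1:**
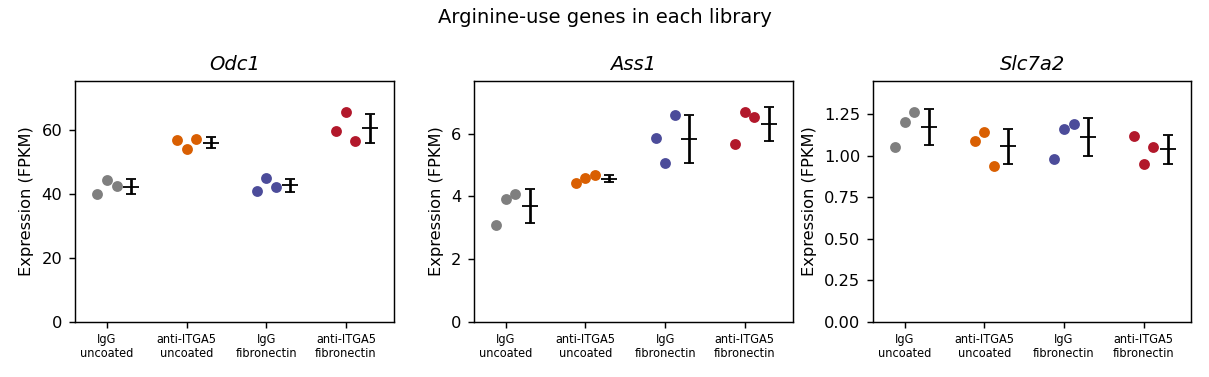
Expression of Odc1, Ass1 and Slc7a2 in FPKM (vertical axis) in the 3 libraries of each group (points), with the mean and SD (bars). Odc1 is high in both anti-ITGA5 groups, Ass1 is higher on fibronectin (5.06 FPKM or more on fibronectin, 4.68 FPKM or less without it), and Slc7a2 stays near 1 FPKM throughout.

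Ass1 (argininosuccinate synthase, chromosome 2, 31470207 to 31520672), which with argininosuccinate lyase rebuilds arginine from citrulline, was higher in every library on fibronectin than in any without it. It was at 3.07, 3.93 and 4.09 FPKM in IgG without fibronectin and at 5.85, 5.06 and 6.59 FPKM in IgG with fibronectin, and at 4.44, 4.57 and 4.68 against 5.68, 6.68 and 6.54 FPKM upon ITGA5 neutralization. The lowest library on fibronectin (5.06 FPKM) was above the highest without it (4.68 FPKM). In IgG, Ass1 rose on fibronectin with a log2 fold change of 0.65 (SE 0.127, 95% confidence interval 0.38 to 0.92, adjusted p = 0.0315 by edgeR, quasi-likelihood F-test, Benjamini-Hochberg). In anti-ITGA5 the same difference was 0.45 (SE 0.0974, interval 0.23 to 0.67), which did not pass (adjusted p = 0.842, unadjusted p = 0.00105) but did when every gene with at least 1 count was tested (0.47, adjusted p = 0.00887). A 2-sided exact permutation test of the FPKM gave p = 0.10 in each, the smallest that 3 libraries against 3 allow. The effect of the coating on Ass1 did not differ detectably between antibodies (interaction -0.20 on the log2 scale, SE 0.170, interval -0.56 to 0.16, adjusted p = 0.9997). Ass1 was the single member called in the coating comparisons, in which 0.449% of genes passed in IgG and 0% in anti-ITGA5. Its call was weak, kept in 7 and lost in 8 of 15 alternative settings, with adjusted p from 4.4e-06 to 0.394. The call was lost with all 12 libraries in one fit (adjusted p = 0.0774) and with limma on FPKM (0.226 to 0.394). It was also lost without IgG without fibronectin replicate 1 (0.298) or 2 (0.0679) or IgG with fibronectin replicate 1 (0.160) or 3 (0.143). DESeq2 gave Ass1 no adjusted p. Between antibodies Ass1 differed less, with a log2 fold change of 0.31 (SE 0.122) without and 0.11 (SE 0.111) with fibronectin. Single libraries moved these values to between 0.19 (without IgG without fibronectin replicate 1) and 0.39, and to between 0.0084 (without IgG with fibronectin replicate 2) and 0.20 (without IgG with fibronectin replicate 3).

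The promoter of Ass1 is shown because this was the member that rose on fibronectin. RefSeq promoters (GRCm38.p6, 250 bases before to 50 after the start used there) were given for 7 of the 8 members and not for Slc7a2. That start can differ from the bounds of the gene printed here. They were searched on both strands for TTC and GAA with 4 free bases between them (the spacing preferred by STAT6), TTCNNNGAA (STAT3 and other STATs), TTGCNNAA (C/EBP), TGANTCA (AP-1), TGACGTCA (CRE) and ACGTG (the core bound by HIF-1). The Ass1 window, chr2:31470020-31470319 on the plus strand, holds ACGTG on both strands, within the palindrome in capitals that starts 36 bases before the start, a core found in 19.6% of 32851 promoters.
Ass1: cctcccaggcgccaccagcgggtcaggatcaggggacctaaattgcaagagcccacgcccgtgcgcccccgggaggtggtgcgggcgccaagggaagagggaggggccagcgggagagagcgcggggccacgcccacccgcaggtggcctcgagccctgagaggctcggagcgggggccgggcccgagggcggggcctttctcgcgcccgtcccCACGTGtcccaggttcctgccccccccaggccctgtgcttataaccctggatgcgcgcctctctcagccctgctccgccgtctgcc

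Slc7a2 (chromosome 8, 40862396 to 40922308), a transporter of arginine and other cationic amino acids, was low, at 0.939 to 1.26 FPKM and 144 to 231 counts over all 12 libraries. The groups overlapped in every comparison. The log2 fold change was -0.15 (SE 0.118) without and -0.10 (SE 0.114) with fibronectin between antibodies, from -0.22 to -0.06 and from -0.19 to -0.04 with single libraries left out. The interval of the coating difference in IgG was -0.32 to 0.16 (adjusted p = 0.876).

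The wider pathway was read from a list of 35 arginine and polyamine genes that excludes the members, of which 27 were tested. Upon ITGA5 neutralization without fibronectin, 8 rose and 2 fell, where 11.0% of all genes tested rose and 9.79% fell. With fibronectin, 14 rose and 4 fell, where 14.4% and 13.2% did. The median log2 fold change was 0.11 and 0.17, against 0.0090 and -0.0038 for all genes tested. With total counts in place of TMM, 9 rose and 2 fell without fibronectin, and 15 rose and 3 fell with it. Slc7a1, the main arginine importer of most cells, rose without fibronectin from 5.77, 5.73 and 5.12 FPKM to 9.20, 9.55 and 8.46 FPKM, a log2 fold change of 0.72 (SE 0.0697, adjusted p = 6.6e-05, edgeR). With fibronectin it was 0.69 (SE 0.0627, adjusted p = 9.6e-06). Aldh18a1, the enzyme that starts proline and ornithine synthesis from glutamate, rose from 5.23, 5.37 and 5.07 to 9.92, 8.22 and 8.94 FPKM without fibronectin, by 0.80 (SE 0.0777, adjusted p = 6.8e-05), and by 0.74 (SE 0.0798, adjusted p = 3.1e-05) with it. Gatm, which uses arginine to make the precursor of creatine, rose by 0.47 (SE 0.0599, adjusted p = 0.000356) and 0.55 (SE 0.0593, adjusted p = 3.2e-05). Pycr1, the last enzyme of proline synthesis, rose by 1.34 with fibronectin (SE 0.343, adjusted p = 0.0119), at levels of 0.165 and 0.423 FPKM. Without fibronectin its log2 fold change of 0.82 did not pass (SE 0.412, adjusted p = 0.191).

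Of the genes of the list that fell, Smox, spermine oxidase, was at 17.6, 15.3 and 17.4 FPKM in IgG and at 13.7, 12.3 and 14.7 FPKM upon ITGA5 neutralization without fibronectin, a log2 fold change of -0.29 (SE 0.0758, adjusted p = 0.0199), and fell by 0.41 with fibronectin (SE 0.0633, adjusted p = 0.000454). Sat1, which acetylates polyamines for export or oxidation, fell by 0.28 (SE 0.0768, adjusted p = 0.0261) and 0.34 (SE 0.0490, adjusted p = 0.000254). Oaz1, the antizyme that sends ornithine decarboxylase to the proteasome, fell by 0.26 with fibronectin (SE 0.0409, adjusted p = 0.000496) and had a log2 fold change of -0.20 without it (SE 0.0692, adjusted p = 0.0658). Paox, an oxidase of acetylated polyamines, went the other way, with a log2 fold change of 0.46 (SE 0.0719, adjusted p = 0.00132) and 0.67 (SE 0.104, adjusted p = 0.000487), though it overlaps Echs1 on the other strand, with up to 1217 counts. Nos2, the inducible nitric oxide synthase that competes for arginine, was at most at 0.103 FPKM in any library and was not tested. On fibronectin in IgG, none of the 27 was called by edgeR, or by DESeq2 among the 10 to which it gave an adjusted p, and 5 had an unadjusted p under 0.05. Those with the smallest adjusted p were Oaz1 (log2 fold change 0.12, SE 0.0376, adjusted p = 0.247) and Slc7a1 (adjusted p = 0.303). The counts that rose were 5 when IgG replicate 1 on plain dishes was left out, and 9 when IgG replicate 1 on fibronectin was, and the 2 that fell without fibronectin were 0 or 1 without any IgG library of that comparison or anti-ITGA5 replicate 1.

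**Figure D2:**
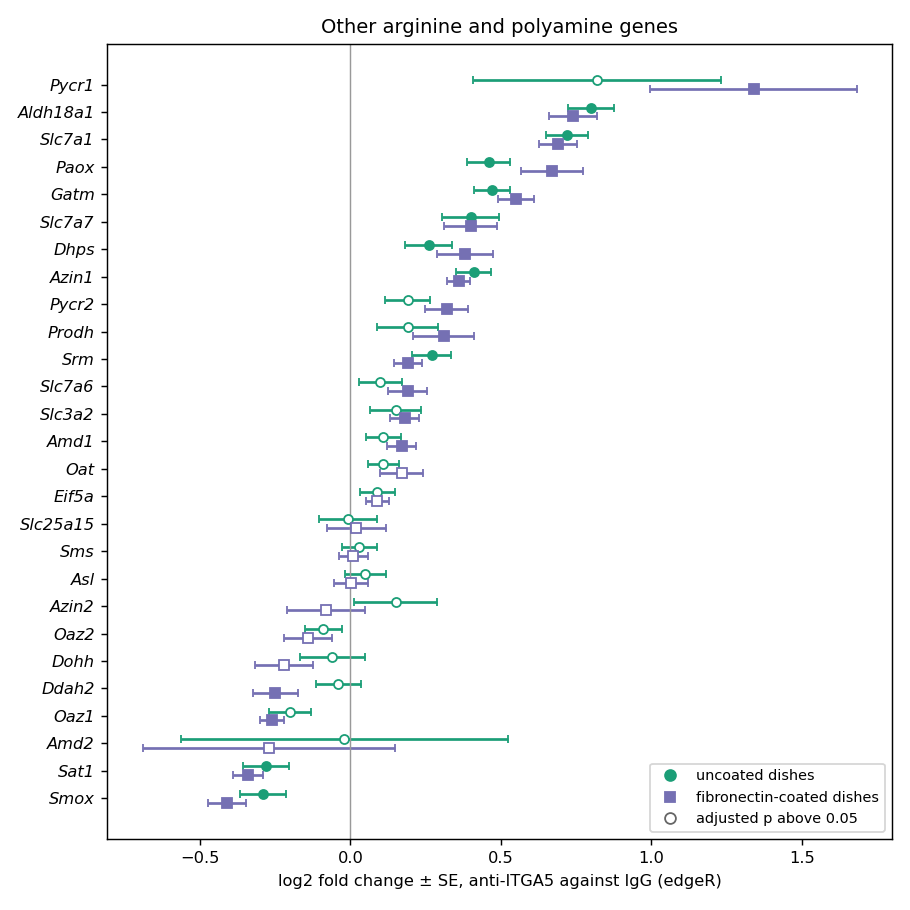
Log2 fold change with its SE (horizontal axis) upon ITGA5 neutralization for the 27 tested genes of the arginine and polyamine list, on uncoated (circles) and fibronectin-coated dishes (squares), ordered by the value on fibronectin. Filled symbols passed an adjusted p-value of 0.05; 8 and 14 genes rose and 2 and 4 fell, with Smox and Sat1 at the bottom and Pycr1, Aldh18a1 and Slc7a1 at the top.

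Among the markers of alternative activation the members differed widely in level. Mrc1 (CD206, a lectin that takes up mannosylated glycoproteins, chromosome 2, 14229392 to 14332057) was abundant, at 144 to 210 FPKM. Without fibronectin it was at 190, 202 and 169 FPKM in IgG and at 201, 210 and 188 FPKM upon ITGA5 neutralization, groups that overlapped (log2 fold change 0.10, SE 0.0728, and 0.03 to 0.16 with single libraries left out). With fibronectin the IgG libraries were at 157, 174 and 144 FPKM and the anti-ITGA5 libraries at 205, 202 and 174 FPKM, groups that did not overlap but met at 174 FPKM (log2 fold change 0.29, SE 0.0687). The call was lost in 3 of 16 alternative settings, those with limma on FPKM. On fibronectin in IgG the log2 fold change of Mrc1 was -0.25, which did not pass (SE 0.0621, interval -0.38 to -0.11, adjusted p = 0.108). The groups overlapped, and the 2-sided exact permutation test of the FPKM gave p = 0.20. The difference passed without IgG without fibronectin replicate 3 (0.0244) or IgG with fibronectin replicate 2 (0.00684). It also passed when every gene with at least 1 count was tested (-0.24, adjusted p = 1.4e-09). With replicate number as a block in the fit it passed as well (-0.25, adjusted p = 4.6e-08). The difference in anti-ITGA5 was -0.06 (SE 0.0737, adjusted p = 0.979). The interaction was 0.18 (SE 0.112, adjusted p = 0.9997).

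Retnla (FIZZ1, chromosome 16, 48842551 to 48844461) and Chil3 (Ym1, chromosome 3, 106147554 to 106167564), secreted proteins that IL-4 induces strongly, were nearly silent. Retnla had no read in any of the 6 libraries without fibronectin. On fibronectin it had 4, 1 and 2 counts in IgG and 0, 2 and 0 counts upon ITGA5 neutralization, at or close to the limit of 3 counts that a library with none allows. Chil3 had 3 to 15 counts per library and group means of 0.232 to 0.373 FPKM, with overlapping groups in each comparison. Its log2 fold change was -0.66 between antibodies with fibronectin (SE 0.430, interval -1.60 to 0.27), from -1.09 (without anti-ITGA5 with fibronectin replicate 1) to -0.46 with single libraries left out. Per length of gene, Mrc1 was at 158 to 200 FPKM in the group means and thus far above Chil3.

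The promoters of Retnla and Chil3 are shown as those of the silent markers, and that of Socs3 beside them because it shares a motif. Retnla (chr16:48842359-48842658, plus strand) holds the STAT6 spacing, found in 6.95% of promoters, 145 bases before the start, and TTGCNNAA, found in 10.8%, 134 bases before it. Chil3 (chr3:106167515-106167814, minus strand) holds TTCNNNGAA 172 bases before the start, and Socs3 (chr11:117969317-117969616, minus strand) holds the same bases 154 bases before the start, a motif found in 8.3% of promoters. The Socs3 window lies within the span of the gene (117966079 to 117970047), so the start used is not the outer bound of that span. The windows of Odc1, Mrc1 and Il4ra hold none of the motifs, and TGANTCA (7.81% of promoters) and TGACGTCA (1.79%) were in no member's window. Matches are in capitals, and none was shown to be bound in these cells.
Retnla: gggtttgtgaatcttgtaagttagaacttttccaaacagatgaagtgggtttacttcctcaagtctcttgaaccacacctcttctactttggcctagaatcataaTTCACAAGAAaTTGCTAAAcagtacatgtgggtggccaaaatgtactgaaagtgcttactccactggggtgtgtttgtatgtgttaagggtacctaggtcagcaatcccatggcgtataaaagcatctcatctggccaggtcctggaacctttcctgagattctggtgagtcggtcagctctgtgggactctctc
Chil3: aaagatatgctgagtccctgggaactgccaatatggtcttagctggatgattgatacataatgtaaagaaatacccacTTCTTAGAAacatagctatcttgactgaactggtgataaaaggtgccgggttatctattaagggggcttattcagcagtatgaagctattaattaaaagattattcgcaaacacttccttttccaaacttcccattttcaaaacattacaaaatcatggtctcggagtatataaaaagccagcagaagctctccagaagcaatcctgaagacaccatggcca
Socs3: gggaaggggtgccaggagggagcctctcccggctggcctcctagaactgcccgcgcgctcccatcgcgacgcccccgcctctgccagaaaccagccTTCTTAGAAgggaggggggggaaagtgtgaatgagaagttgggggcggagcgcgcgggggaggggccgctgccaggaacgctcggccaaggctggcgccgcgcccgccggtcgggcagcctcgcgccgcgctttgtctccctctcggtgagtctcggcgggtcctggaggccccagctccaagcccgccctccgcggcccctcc

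Il4ra (chromosome 7, 125552120 to 125579474), the receptor chain for IL-4 and IL-13, was at 21.6, 19.5 and 24.1 FPKM in IgG and at 17.4, 14.8 and 18.7 FPKM upon ITGA5 neutralization without fibronectin. With fibronectin it was at 22.8, 21.0 and 23.8 against 17.2, 16.7 and 21.0 FPKM, where the lowest IgG and the highest anti-ITGA5 library nearly met. The log2 fold change was -0.35 (SE 0.0894) and -0.30 (SE 0.0780). Leaving out single libraries moved them to between -0.42 and -0.27 and between -0.41 and -0.24, and the call was lost in 6 and 5 of 16 alternative settings. Between coatings it did not pass the test (log2 fold change 0.04 in IgG, adjusted p = 0.876, and 0.09 in anti-ITGA5, adjusted p = 0.979).

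Of 41 genes of the IL-4 and STAT6 pathway and alternative activation, members excluded, 29 were tested without fibronectin, of which 2 rose and 3 fell upon ITGA5 neutralization, where 11.0% of all genes tested rose and 9.79% fell. With fibronectin 4 rose and 7 fell of 30, where 14.4% and 13.2% did. The median log2 fold change was -0.06 and -0.08, against 0.0090 and -0.0038 for all genes tested. With total counts in place of TMM these counts were 5 higher and 1 lower without fibronectin, and 5 higher and 3 lower with it, so their balance depends on the scaling. They also depend on single libraries, with 0 to 4 higher and 1 to 4 lower without fibronectin, and 1 to 4 higher and 3 to 6 lower with it, when 1 library was left out. F13a1, coagulation factor XIII A, a transcript of IL-4-treated macrophages, was at 27.8, 23.8 and 24.9 FPKM in IgG and at 16.8, 12.2 and 15.9 FPKM upon ITGA5 neutralization without fibronectin. Its log2 fold change was -0.76 (SE 0.0995, adjusted p = 0.000444) without and -0.47 (SE 0.0779, adjusted p = 0.000719) with fibronectin. The transcription factors Cebpb and Klf4 fell with fibronectin by 0.47 (SE 0.0551, adjusted p = 5.8e-05) and 0.48 (SE 0.130, adjusted p = 0.0161). Without it their log2 fold changes of -0.28 and -0.36 did not pass (adjusted p = 0.126 and 0.0648). Cebpb overlaps Tmem189, on the other strand, with up to 4410 counts. The kinases Jak1 and Jak2 fell without fibronectin by 0.16 (SE 0.0484, adjusted p = 0.0362) and 0.18 (SE 0.0593, adjusted p = 0.0496). With it their log2 fold changes of -0.09 and -0.08 did not pass (adjusted p = 0.117 and 0.426). Mgl2, a lectin induced by IL-4, rose with fibronectin from 0.778, 0.921 and 0.515 to 1.77, 1.49 and 0.924 FPKM (log2 fold change 0.91, SE 0.283, adjusted p = 0.0302). Without fibronectin its log2 fold change of 0.72 did not pass (SE 0.265, adjusted p = 0.0808). Fn1, which encodes fibronectin itself, rose by 0.66 (SE 0.175, adjusted p = 0.0227) and 0.61 (SE 0.152, adjusted p = 0.0101), though its groups overlapped on both coatings. Matk rose by 0.86 without fibronectin (SE 0.234, adjusted p = 0.0252), with a log2 fold change of 0.19 on fibronectin (adjusted p = 0.526). The kinase Tyk2 rose by 0.20 with fibronectin (SE 0.0477, adjusted p = 0.00771), with a log2 fold change of 0.05 without it (adjusted p = 0.611). On fibronectin in IgG, F13a1 fell by 0.32 (SE 0.0563, adjusted p = 0.0178), the single gene called of 30 (0.449% of all genes tested). That call was lost with all 12 libraries in one fit, with limma on FPKM, and without IgG without fibronectin replicate 1 or IgG with fibronectin replicate 3. Il2rg, the common γ chain, had a log2 fold change of 0.38 (SE 0.0895, adjusted p = 0.0847).

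Socs3 (chromosome 11, 117966079 to 117970047), an inhibitor of some receptors that activate STAT3, was a low transcript with 23 to 85 counts. Without fibronectin it was at 1.18, 0.997 and 1.26 FPKM in IgG and at 0.453, 0.829 and 0.978 FPKM upon ITGA5 neutralization, and with fibronectin at 0.902, 1.35 and 1.16 against 0.552, 0.669 and 0.858 FPKM. Within each coating every anti-ITGA5 library was below every IgG library, by a narrow margin, while anti-ITGA5 without fibronectin (up to 0.978 FPKM) overlapped with IgG with fibronectin (from 0.902 FPKM). The log2 fold change was -0.60 (SE 0.292) and -0.73 (SE 0.231), so the error was large. Leaving out single libraries moved these values to between -0.85 and -0.33 on plain dishes, where the smallest was without anti-ITGA5 replicate 1, and to between -0.90 and -0.59 on fibronectin. The call with fibronectin was lost in 9 of 16 alternative settings. The coating made no detectable difference in IgG (-0.0097, interval -0.42 to 0.40, adjusted p = 0.993) or in anti-ITGA5 (-0.14, interval -0.89 to 0.60, adjusted p = 0.982).

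Of 24 genes of the IL-6, IL-10 and STAT3 pathway, which share Jak1, Jak2 and Tyk2 with the IL-4 list, 18 were tested, and 5 fell and 1 rose on each coating, where 9.79% of all genes tested fell and 11.0% rose without fibronectin, and 13.2% and 14.4% with it. The median log2 fold change was -0.15 without and -0.11 with fibronectin, against 0.0090 and -0.0038 for all genes tested. With total counts in place of TMM 2 fell and 1 rose without fibronectin, and 4 fell and 1 rose with it. When 1 library was left out, 2 to 9 fell without fibronectin (9 without anti-ITGA5 replicate 2) and 4 to 6 with it. Csf3r, the G-CSF receptor, was at 6.08, 5.81 and 6.16 FPKM in IgG and at 3.98, 3.86 and 3.71 FPKM upon ITGA5 neutralization without fibronectin. Its log2 fold change was -0.64 (SE 0.0786, adjusted p = 0.000298) without and -0.41 (SE 0.0966, adjusted p = 0.00689) with fibronectin. Both chains of the IL-10 receptor fell: Il10ra by 0.24 (SE 0.0615, adjusted p = 0.0203) and 0.35 (SE 0.0675, adjusted p = 0.00231), and Il10rb by 0.26 (SE 0.0509, adjusted p = 0.00496) and 0.27 (SE 0.0427, adjusted p = 0.000585). The kinases Jak1 and Jak2, counted in both lists, were the others that fell without fibronectin, and Tyk2 was the gene that rose with it. Osm, a cytokine that signals through STAT3, rose without fibronectin by 0.31 (SE 0.0923, adjusted p = 0.0392). With fibronectin Osm was not called, and its groups overlapped (6.34, 6.75 and 5.82 FPKM in IgG against 6.01, 7.14 and 6.71 FPKM). On fibronectin in IgG, none of 19 was called by edgeR, or by DESeq2 among the 8 with an adjusted p, and 2 had an unadjusted p under 0.05, Tyk2 (log2 fold change -0.18, adjusted p = 0.138) and Lifr (-0.50, adjusted p = 0.371).

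**Figure D3:**
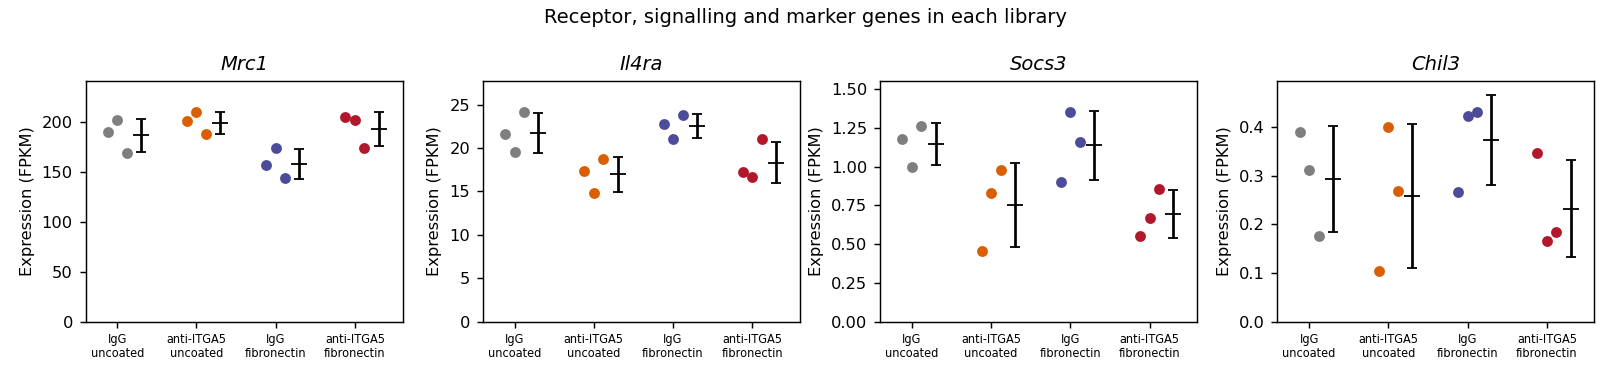
Expression of Mrc1, Il4ra, Socs3 and Chil3 in FPKM (vertical axis) in the 3 libraries of each group (points), with the mean and SD (bars). Mrc1 lies between 144 and 210 FPKM, Il4ra is lower in the anti-ITGA5 groups, Socs3 lies near 1 FPKM, and the groups of Chil3 overlap under 0.5 FPKM.

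Apart from Ass1, no member passed the test between coatings, though the call of Mrc1 in IgG depended on the setting, as given above. For Odc1 the difference was 0.01 in IgG (interval -0.09 to 0.11, adjusted p = 0.968; -0.0084 with total counts) and 0.10 in anti-ITGA5 (adjusted p = 0.979). In IgG the groups with and without fibronectin did not overlap for 1 of the 7 members tested, Ass1 (15.4% of genes tested), and in anti-ITGA5 for 1 of 6, again Ass1 (9.74%). Retnla, which was not tested, did not overlap in IgG either, at counts around the floor of 3. In anti-ITGA5 none of 6 members was called by edgeR or DESeq2, and 1, Ass1, had an unadjusted p under 0.05.

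The interaction asked whether the antibody difference depended on the coating. For Odc1 it was 0.09 on the log2 scale (SE 0.0809, interval -0.09 to 0.26, adjusted p = 0.9997, edgeR over all 12 libraries), an interval that allows an antibody difference that is slightly smaller, equal or larger on fibronectin. For Il4ra it was 0.04 (SE 0.136, interval -0.25 to 0.33, adjusted p = 0.9997) and for Socs3 -0.13 (SE 0.382, interval -0.95 to 0.68, adjusted p = 0.9997). None of 7 members was called by edgeR or DESeq2 or had an unadjusted p under 0.05, where 0.0223% of 13455 genes passed.

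**Figure D4:**
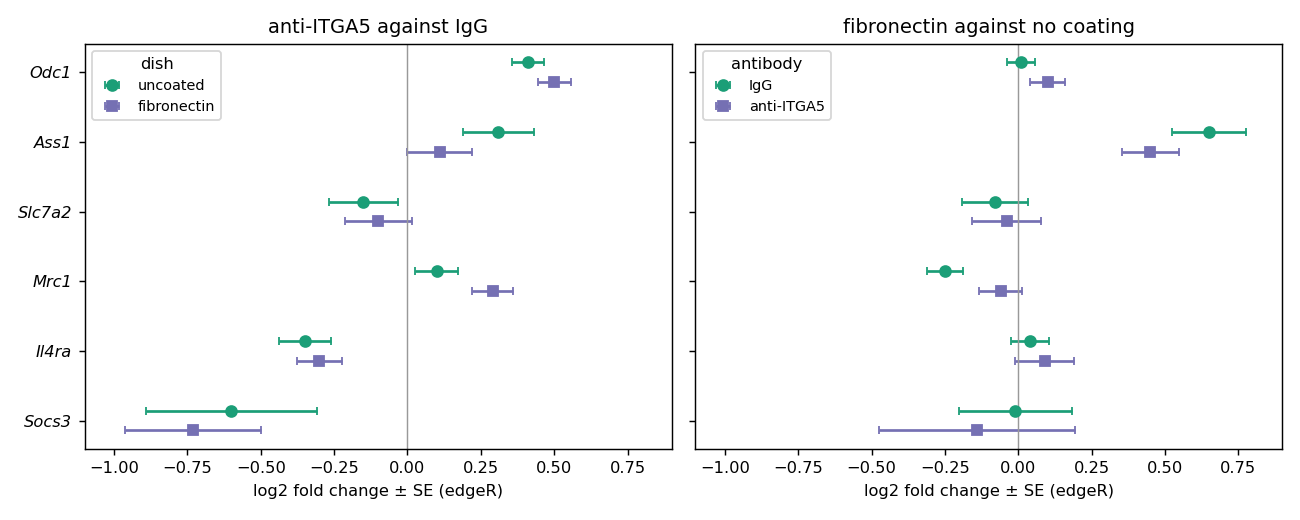
Log2 fold change with its SE (horizontal axis, edgeR) of 6 members. Left, anti-ITGA5 against IgG on uncoated (circles) and coated dishes (squares), with Odc1 at 0.41 and 0.50 and Il4ra at -0.35 and -0.30; right, fibronectin against no coating in IgG (circles) and anti-ITGA5 (squares), with Ass1 at 0.65 and 0.45.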

How the data were processed

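Poly(A) RNA of 12 libraries (4 groups of 3) was sequenced as 150 bp read pairs. Per the labels and the submitters' processing notes, the authors aligned reads with TopHat2 (2.0.9) to mm10, named there with GRCm38.p6, and counted genes with HTSeq (0.6.1). The deposited counts are whole reads per gene, not normalized. The deposited FPKM were made by the authors from these counts with gene length and an adjusted library size, since the totals they imply differ from the total counts in every library (for example 13772108 against 12954342), and Cufflinks (2.1.1) is also named. Whether counting used strand is not given in the sources used here, so overlapping genes are named.

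Counts were tested in R (4.3.3) with edgeR (4.0.16), by filterByExpr, TMM factors and the quasi-likelihood test, in 4 pairwise fits of 6 libraries and an interaction fit of 12, with Benjamini-Hochberg adjustment over all genes tested. Log2 fold changes, SE and 95% intervals come from these fits. FPKM served for levels, exact permutation tests and limma (3.58.1). DESeq2 (1.42.0), other scalings, filters, fits and left-out libraries were alternatives. Scripts were tested on simulated data. Depth of 12954342 to 22075432 counts sets a floor of 3 counts, which covers counting error only.

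The members and lists were chosen with earlier results of these data known. Named genes were all 8 members, and from each of 3 lists the 3 with the largest rise and the 3 with the largest fall past the threshold in each antibody comparison and the 2 with the smallest adjusted p for coating in IgG. Further genes of the set and what was planned on them are not reported here. Paox was named beyond this rule, and Nos2 too, after their values were seen. Of the lists, 34 of 35, 41 of 41 and 24 of 24 genes were in the table. The antibody comparisons share no library with each other, nor do the coating comparisons, but each antibody comparison shares libraries with each coating comparison. No column of the authors' own comparisons was used.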

Additional observations from a re-analysis of the deposited data

How the results depend on the processing

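Counts and calls moved as follows, and the cause was not tested. Depth limits Retnla, Chil3 and Socs3.

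With total counts in place of TMM, the genes called without fibronectin were 940 lower and 1838 higher, against 1265 and 1419, and those with fibronectin 1264 and 2407, against 1699 and 1866. For the coating in IgG they were 23 and 34, against 16 and 42. Of the IL-4 list, 1 was then lower and 5 higher without and 3 lower with fibronectin, 2 of the STAT3 list were lower without it, and Odc1 turned to -0.0084 between coatings in IgG.

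With DESeq2, 41 genes were lower and 100 higher for the coating in IgG, and 2 and 3 for the coating in anti-ITGA5, and 1 was higher in the interaction. Without fibronectin, 1 of the IL-4 list and 0 of the STAT3 list were higher between antibodies, and with fibronectin 1 member was lower, as with all 12 libraries in one fit. With all 12 libraries in one fit, the coating in IgG gave 1 lower and 10 higher genes and no call for Ass1 (0.65, adjusted p = 0.0774) or F13a1, so 0 of the members and 0 of the IL-4 list, and the coating in anti-ITGA5 gave 1 and 1.

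With every gene with at least 1 count tested, the coating gave 66 lower and 175 higher genes in IgG, with 1 member lower (Mrc1), 1 higher (Ass1) and 5 of the IL-4 list higher. In anti-ITGA5 it gave 214 and 113 genes, with Ass1 (1 member) higher. The interaction gave 32 and 33, and the STAT3 list had 0 higher without and 2 higher with fibronectin between antibodies.

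With limma on log2(FPKM + 1) or log2(FPKM + 0.1) and a mean of at least 0.5 FPKM, between antibodies 0 members were lower on plain dishes, and on fibronectin 0 were lower and 1 was higher. The arginine list had 0 lower and the IL-4 list 0 higher without fibronectin, and the IL-4 list had 4 lower and 2 higher with it. For the coating in IgG 2 or 0 genes were lower and 5 were higher, with 0 members and 0 of the IL-4 list, and Ass1 at 0.54 or 0.65 (adjusted p = 0.226 or 0.229). The interaction had 1 gene lower. Without a filter, limma on log2(FPKM + 1) called 536 lower and 684 higher genes without fibronectin and 846 and 1025 with it, and 9 and 8 for the coating in IgG, where Ass1 was at 0.54 (adjusted p = 0.394), with 3 higher in the interaction. Between antibodies the members had 0 lower on plain dishes and, on fibronectin, 0 lower and 1 higher. The arginine list had 0 lower and 5 higher without and 8 higher with fibronectin. The IL-4 list had 0 higher without, and 2 lower and 1 higher with it, and the STAT3 list had 3 lower and 0 higher without and 3 lower with it.

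The labels do not pair the libraries by replicate number, and the main fits did not use it. Deviations of libraries with the same number correlated at -0.0196 to 0.149 and not over 0.1 in every pair. In both antibody comparisons and for the coating in IgG, each same-number correlation (0.032 to 0.149) was above every other one (at most 0.00484). For the coating in anti-ITGA5 they overlapped (-0.0196 to 0.135 against -0.142 to 0.11). Whether equal numbers mark a shared preparation was not tested. With the replicate block, 133 genes were lower and 283 higher for the coating in IgG, with Mrc1 lower (1 member, adjusted p = 4.6e-08) and Ass1 higher (1 member), 1 of the arginine list higher, 2 of the IL-4 list lower and 6 higher, and 1 of the STAT3 list lower. The block also gave 2 lower genes for the coating in anti-ITGA5, 5 lower in the IL-4 list without fibronectin and 2 higher in the STAT3 list with it.

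With single libraries left out, the genes called between antibodies without fibronectin ranged from 627 to 1842 lower and from 846 to 1992 higher, and with fibronectin from 1113 to 1907 lower. Members lower ranged from 0 to 1 and from 0 to 2. The arginine list ranged from 0 to 3 lower and 5 to 12 higher without fibronectin and from 9 to 14 higher with it. The IL-4 list ranged from 1 to 4 lower and 0 to 4 higher, and from 3 to 6 lower and 1 to 4 higher. The STAT3 list ranged from 2 to 9 lower and 0 to 1 higher, and from 0 to 2 higher. For the coating in IgG, genes ranged from 3 to 24 lower and 6 to 77 higher, members from 0 to 1 lower and 0 to 1 higher, and the IL-4 list from 0 to 1 lower and 0 to 2 higher. Ass1 ranged from 0.53 to 0.75, Odc1 from -0.03 to 0.05, Slc7a2 from -0.15 to 0.0024, Il4ra from -0.03 to 0.13 and Socs3 from -0.16 to 0.13. In anti-ITGA5, genes ranged from 0 to 4 in either direction, Slc7a2 from -0.12 to 0.03, Mrc1 from -0.11 to 0.0065, Il4ra from -0.02 to 0.16 and Socs3 from -0.41 to 0.10. In the interaction, genes ranged from 1 to 4 lower and 0 to 3 higher, Slc7a2 from -0.04 to 0.12, Il4ra from -0.06 to 0.12 and Socs3 from -0.39 to 0.13.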

Other observations

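Il4, named after its values were seen, had 22 to 54 counts in every library (1.30 to 2.49 FPKM), while the eosinophil, basophil and mast cell markers summed to at most 0.356 FPKM and Retnla and Chil3 were nearly silent. Il4 overlaps no other gene of the table and did not pass the test between antibodies (adjusted p = 0.590 without and 0.640 with fibronectin, edgeR).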
